A study of Mus musculus with 12 samples.

Results

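The genes described here are 10 genes known from resident, alternatively activated macrophages: Cd163, Mrc1, Lyve1, Timd4, Folr2, Clec10a, Mgl2, Retnla, Chil3 and F13a1. They were listed by symbol for their known roles, with no threshold on a measured value, though earlier results of these data were known when the list was made. All 10 were found among the 47729 genes of the deposited files. The RNA-seq libraries came from interscapular brown adipose tissue (BAT) and from inguinal (IWAT), epididymal (EWAT) and retroperitoneal (RWAT) white adipose tissue, with 3 libraries each and 12 in all. The mice were wild-type C57BL/6J males of 6 to 10 weeks on a standard low-fat diet, and every tissue had been surgically denervated. No innervated or sham-operated tissue was analysed here, so the comparisons are between denervated depots and an effect of denervation cannot be measured. The labels do not say how long after surgery the tissue was taken, or that each library of a depot is its own animal. The p-values thus rest on the spread of these libraries alone, which may be technical in part. It was wider than counting noise, with a chi-square per degree of freedom of 53.5 to 391 between libraries of a depot.

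Resident tissue macrophages are settled in a tissue and clear dying cells, matrix and haemoglobin. Alternative activation is their response to the type 2 cytokines interleukin-4 and interleukin-13, which signal through the receptor chain Il4ra and the transcription factor Stat6. Among the 10 genes, Cd163 encodes the scavenger receptor for haemoglobin bound to haptoglobin, Mrc1 the mannose receptor, Lyve1 a hyaluronan receptor that lymphatic endothelium also carries, Timd4 a phosphatidylserine receptor for apoptotic cells, and Folr2 a folate receptor. Clec10a and Mgl2 encode neighbouring galactose-type C-type lectins, and Mgl2 is also known from dendritic cells. Retnla and Chil3 encode the secreted proteins RELM-alpha and Ym1, both classical products of alternative activation in mice, and Chil3 is also made by neutrophils and their precursors. F13a1 encodes the catalytic subunit of coagulation factor XIII, a transglutaminase that macrophages and platelets hold.

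Promoter windows from RefSeq (GRCm38.p6, 250 bases before to 50 bases after the gene start) were matched for 8 of the 10 genes, with Clec10a and Lyve1 not matched. The following 3 are shown because Retnla and Mgl2 had similar profiles over the libraries and Mrc1 ran against both. Capitals mark matches, on either strand, to TTC, any 4 bases and GAA (known as a STAT6 site), GAGGAA (a core of PU.1 sites) or TGCTGAC (a short MAF site). The Retnla window is chr16:48842359-48842658 on the plus strand, the Mgl2 window chr11:70130107-70130406 on the plus strand and the Mrc1 window chr2:14229164-14229463 on the plus strand.
Retnla: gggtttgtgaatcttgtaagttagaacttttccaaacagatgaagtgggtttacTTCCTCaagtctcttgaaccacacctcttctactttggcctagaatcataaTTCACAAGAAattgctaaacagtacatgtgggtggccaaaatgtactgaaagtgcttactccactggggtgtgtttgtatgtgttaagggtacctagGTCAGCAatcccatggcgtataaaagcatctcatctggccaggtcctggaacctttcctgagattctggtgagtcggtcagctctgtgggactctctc
Mgl2: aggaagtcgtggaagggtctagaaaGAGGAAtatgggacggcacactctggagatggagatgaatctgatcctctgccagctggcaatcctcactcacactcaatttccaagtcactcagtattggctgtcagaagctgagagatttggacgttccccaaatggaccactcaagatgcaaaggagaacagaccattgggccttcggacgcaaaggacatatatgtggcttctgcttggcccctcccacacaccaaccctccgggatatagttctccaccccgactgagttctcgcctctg
Mrc1: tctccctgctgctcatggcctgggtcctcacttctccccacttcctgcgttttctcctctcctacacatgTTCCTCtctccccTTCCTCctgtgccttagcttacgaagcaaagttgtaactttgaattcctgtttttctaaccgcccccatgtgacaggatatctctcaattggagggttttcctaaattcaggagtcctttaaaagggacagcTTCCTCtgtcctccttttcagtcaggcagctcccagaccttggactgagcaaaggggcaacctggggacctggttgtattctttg
Of the 8 genes, only Retnla had the STAT6 letters in its window, as TTCACAAGAA with the first base 145 bases before the start, and 6.95% of all 32851 promoter windows held them. The short MAF site was in the windows of Retnla, at -48, and Timd4, at -45, against 4.67% of all windows. The PU.1 core was in Retnla, Mgl2, Mrc1 (3 matches) and F13a1, against 28.3% of all windows. The matches describe the letters and were not tested as binding sites.

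The lectins Clec10a (ENSMUSG00000000318) and Mgl2 (ENSMUSG00000040950) lie 18646 bases apart on chromosome 11, at 70156197 to 70170834 and 70130329 to 70137550 (GRCm38, GENCODE M21), both on the plus strand. Their coding sequences matched at 92.8% of 850 aligned bases. The stretch of 75 bases, the read length, in which they are most alike is identical in both, and it is shown with the stretch in which they differ most, at 22 positions in capitals. The identical stretch covers coding bases 66 to 140 of Clec10a and 111 to 185 of Mgl2, and the other one 831 to 905 of Clec10a and 876 to 950 of Mgl2.
Clec10a and Mgl2, most alike: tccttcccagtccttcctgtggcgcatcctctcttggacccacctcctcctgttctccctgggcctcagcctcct
Clec10a, least alike: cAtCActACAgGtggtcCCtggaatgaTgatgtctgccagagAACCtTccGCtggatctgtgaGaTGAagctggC
Mgl2, least alike: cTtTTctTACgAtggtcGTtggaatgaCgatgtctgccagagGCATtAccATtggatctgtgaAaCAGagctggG
Of all 75-base windows in the annotated transcripts, 148 were shared, which is 4.44% of the 3331 windows of Clec10a and 6.56% of the 2255 windows of Mgl2. The posterior standard deviation that RSEM gave their counts was at most 6.45 reads in any library. Most reads of either lectin could therefore be placed, but their counts are estimates in the shared stretches.

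All 10 genes passed the filter on low counts and were tested among 19154 genes. Library totals ran from 15699912 to 25633413 counts. Levels are given as CPM, counts scaled to library size by TMM, for a gene between libraries, and the authors' TPM, which accounts for length, between genes. The libraries of a depot differed widely in cell content: the summed level of 15 general macrophage genes was 447 to 5584 TPM in BAT, 1055 to 7614 in IWAT, 6106 to 10440 in EWAT and 1640 to 6511 in RWAT, with none of the 15 at 0 throughout. In BAT and IWAT replicate 3, and in RWAT replicate 1 on the low side, this sum stood apart from the other libraries of the depot. The 10 skeletal muscle markers summed to 1418 to 6577 TPM in BAT and 9130 TPM in RWAT replicate 3, and to at most 27.7 TPM in every other library. The 9 brown adipocyte markers, checked as markers of the labelled tissue, summed to 493 to 4188 TPM in BAT, 145 to 828 in IWAT, 11.3 to 12.8 in EWAT and 16.2 to 255 in RWAT, so BAT replicate 2, at 493 TPM, lay within the range of IWAT. The 8 mesothelial markers summed to 97.5 to 157 TPM in EWAT and 28.0 to 193 in RWAT, and to at most 2.39 TPM in BAT and IWAT. Of these markers edgeR called 4 of 9 brown adipocyte genes in BAT against the white mean, 1 of 9 in IWAT against EWAT and RWAT, and 4 of 8 mesothelial genes in IWAT against EWAT and RWAT, with no other of these markers called in the 3 main comparisons. Those with the largest changes were Ucp1 (log2 fold change 8.92, adjusted p = 0.0356) and Elovl3 (6.32, 0.0482) in BAT, Lhx8 (4.91, 0.00344) in IWAT, and, lower in IWAT, Upk1b (-8.58, 0.0228) and Upk3b (-8.39, 0.0287). In such bulk tissue fewer cells of a type and less RNA per cell cannot be told apart.

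Clec10a, Mrc1 and F13a1 were among the 4 most abundant genes of the set in every depot, Retnla in BAT and IWAT, and Timd4 was the least abundant in every depot. By mean TPM, the order in BAT was Clec10a (96.8), Retnla (89.3), Mrc1 (75.9), F13a1 (75.2), Folr2 (50.6), Cd163 (36.9), Mgl2 (23.0), Lyve1 (17.6), Chil3 (11.1) and Timd4 (0.94). In IWAT the order of the genes was the same, with mean TPM of 155 for Clec10a, 126 for Retnla and 5.30 for Timd4. In EWAT the first was again Clec10a (164 TPM), but Retnla, at 13.8 TPM, ranked 7 of 10 and Chil3, at 65.2 TPM, ranked 5. In RWAT Mrc1 came first with a mean of 179 TPM, and Retnla, with 47.2 TPM, ranked 6. Neighbours in these orders mostly overlapped over the 3 libraries, as Clec10a did in BAT, at 54.7 to 153 TPM, with Retnla, at 62.3 to 115 TPM.

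Retnla, Mgl2, Lyve1, Cd163 and F13a1 had their lowest mean CPM in EWAT and Chil3 its highest. The libraries of Cd163 and F13a1, and those of Mrc1, Folr2, Clec10a and Timd4, overlapped in every pair of depots. Across the 4 depots edgeR's quasi-likelihood test called none of the 10 genes at an adjusted p under 0.05 (Benjamini-Hochberg over all genes tested), where 0.512% of all genes tested were called. At an unadjusted p under 0.05 there were 4 of the 10, against 17.1% of all genes. DESeq2 called 4, Lyve1, Timd4, Retnla and Mgl2, where it called 11.3% of all genes for which it gave an adjusted p, and limma-voom called 0. The edgeR adjusted p was 0.185 for Mgl2, 0.206 for Retnla, 0.221 for Lyve1 and 0.256 for Timd4, and 0.416 to 0.798 for the other 6. Leaving out RWAT replicate 1 brought Retnla (adjusted p = 0.0499) and Mgl2 (0.0496) under the threshold, and leaving out EWAT replicate 1 did so for Lyve1 (0.0280). Over the alternatives in processing the adjusted p ran from 0.0165 to 0.457 for Retnla, from 0.0179 to 0.427 for Mgl2 and from 0.028 to 0.521 for Lyve1.

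Retnla, the RELM-alpha gene, held 75.4, 57.0 and 26.0 CPM in BAT replicates 1 to 3 and 82.6, 50.6 and 40.2 CPM in IWAT. It held 3.48, 5.44 and 5.30 CPM in EWAT, and 45.3, 0.991 and 9.03 CPM in RWAT. All 6 BAT and IWAT libraries lay above all 3 EWAT libraries, while the RWAT libraries reached from below the EWAT range into that of BAT. The log2 fold change was 3.47 in BAT against EWAT (SE 1.01, edgeR adjusted p = 0.0791) and 3.6 in IWAT against EWAT (SE 1.01, adjusted p = 0.141). Leaving out RWAT replicate 1 or 2 brought BAT against EWAT to an adjusted p of 0.0431 and 0.0490, within a range of 0.00262 to 0.491 over the alternatives, and for IWAT against EWAT that range was 0.00341 to 0.424. The span over all 12 libraries was 83.3-fold, the widest of the 10 genes.

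Mgl2 held 46.2, 42.0 and 17.5 CPM in BAT and 39.6, 26.8 and 19.4 CPM in IWAT. It held 6.38, 10.8 and 5.65 CPM in EWAT, and 28.6, 7.03 and 8.65 CPM in RWAT. As for Retnla, every BAT and IWAT library lay above every EWAT library, and RWAT replicate 1 stood above the other 2 of its depot. The log2 fold change was 2.21 in BAT against EWAT (SE 0.58, edgeR adjusted p = 0.0701) and 1.91 in IWAT against EWAT (SE 0.58, adjusted p = 0.167). Leaving out BAT replicate 3 gave 2.62 in BAT against EWAT (adjusted p = 0.0486) and leaving out RWAT replicate 1 gave 2.22 (0.0400), within a range of 0.00346 to 0.484 over the alternatives, and for IWAT against EWAT that range was 0.0289 to 0.410.

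Its neighbour Clec10a, in contrast, had the narrowest span of the 10 genes, 2.11-fold. It held 75.5, 74.3 and 112 CPM in BAT and 83.0, 77.0 and 155 CPM in IWAT, against 103, 82.0 and 112 CPM in EWAT and 87.4, 85.7 and 73.2 CPM in RWAT. No pair of depots was separated, and the largest of its fitted differences in the 3 main comparisons was 0.27 (SE 0.28) in EWAT against RWAT. The ratio of Clec10a to Mgl2, in TPM, was therefore 2.59, 2.59 and 9.57 in BAT and 3.26, 4.37 and 12.1 in IWAT. In EWAT it was 24.6, 12.3 and 29.3, above every BAT and IWAT library, and in RWAT 4.22, 17.6 and 11.9. Mgl2 made up 38.0% of the counts of both lectins in BAT replicate 1 and 4.81% in EWAT replicate 3, the extremes of the 12 libraries. This ratio was chosen after the values were seen and was not tested.

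**Figure D1:**
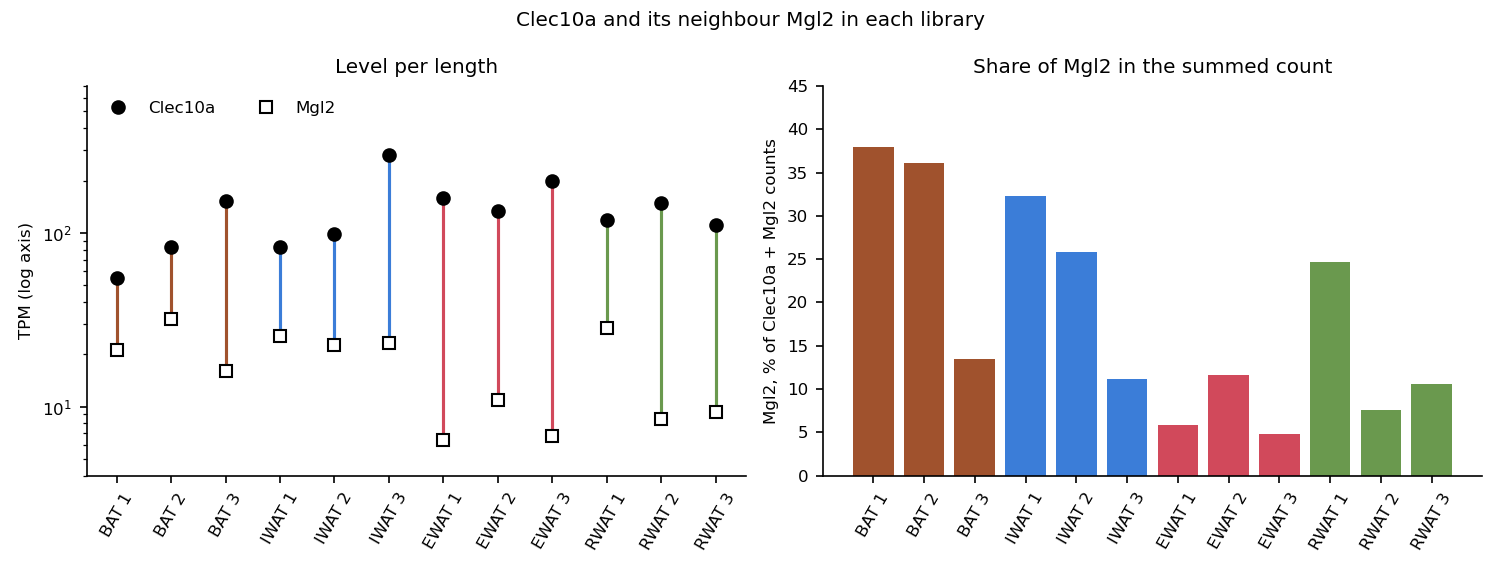
TPM of Clec10a (filled circles) and Mgl2 (open squares) in each library on a log axis (left), and the share of Mgl2 in the summed estimated count of both genes, in percent (right). Each bar or pair of points is 1 library; the gap is widest in EWAT replicate 3, and the share of Mgl2 is between 4.81% and 11.6% in EWAT.

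Lyve1, the hyaluronan receptor, held 62.6, 34.7 and 45.7 CPM in BAT, 81.8, 44.6 and 29.2 in IWAT, 25.8, 8.44 and 4.90 in EWAT, and 54.2, 58.9 and 39.4 in RWAT. Every EWAT library lay below every library of the other 3 depots. The log2 fold change was -1.96 in EWAT against RWAT (SE 0.58, edgeR adjusted p = 0.287), 1.87 in BAT against EWAT (SE 0.57, adjusted p = 0.0871) and 1.99 in IWAT against EWAT (SE 0.58, adjusted p = 0.151). Without EWAT replicate 1, which had the highest of the EWAT levels, these became -2.94 (adjusted p = 0.0145), 2.84 (0.0144) and 2.97 (0.0120). Over all alternatives, the adjusted p of EWAT against RWAT ran from 0.0145 to 0.891. The 5 lymphatic endothelial markers used, Lyve1 not among them, summed to 8.97 to 53.5 TPM in BAT, 21.1 to 72.7 TPM in IWAT, 61.3 to 93.9 TPM in EWAT and 33.5 to 118 TPM in RWAT, with none at 0 throughout. Pdpn was the highest of the 5, so the sum need not follow the others. Gene by gene, their median log2 fold change was 1.66 in IWAT against EWAT, -0.20 in BAT against EWAT and -0.27 in EWAT against RWAT. The part of these markers in the Lyve1 level was not tested.

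Timd4 was the lowest of the 10, with 20, 41 and 34 counts in BAT, 669, 44 and 8 in IWAT, 40, 54 and 17 in EWAT and 30, 13 and 24 in RWAT. IWAT replicate 1, at 33.3 CPM, stood above the other 11 libraries, which held 0.418 to 2.68 CPM. The log2 fold change of IWAT against EWAT and RWAT was 3.04 (SE 0.93, edgeR adjusted p = 0.358) and became -0.03 without that library (adjusted p = 1). DESeq2 gave an adjusted p of 0.0488, the lowest over 21 alternatives, and that fold change rests on 1 library.

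The other 3 uptake receptors overlapped between all depots. Cd163 held 114, 146 and 178 CPM in BAT, 170, 174 and 146 in IWAT, 159, 128 and 54.7 in EWAT and 177, 130 and 189 in RWAT, with EWAT replicate 3 the lowest of all. Mrc1, the mannose receptor gene, had the most counts of the 10, at 226, 248 and 602 CPM in BAT, 322, 387 and 711 in IWAT, 513, 465 and 452 in EWAT and 371, 890 and 535 in RWAT. Folr2 held 36.7, 30.0 and 77.6 CPM in BAT, 38.5, 55.4 and 91.2 in IWAT, 73.3, 55.5 and 71.8 in EWAT and 37.8, 98.9 and 69.6 in RWAT. For Mrc1 and Folr2, replicate 3 of BAT and of IWAT lay above the other 2 libraries of the depot, and in RWAT replicate 1 lay below them.

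F13a1 held 243, 242 and 355 CPM in BAT, 262, 352 and 412 in IWAT, 347, 296 and 139 in EWAT and 319, 441 and 429 in RWAT. As for Cd163, EWAT replicate 3 was the lowest library. The 6 platelet and megakaryocyte markers, of which Vwf was the highest, summed to 17.9 to 32.2 TPM in BAT, 26.1 to 99.1 in IWAT, 39.8 to 65.6 in EWAT and 43.8 to 66.7 in RWAT. The part of these markers in the F13a1 level was not tested. Chil3, the Ym1 gene, held 1.97, 2.29 and 24.4 CPM in BAT, 2.64, 15.9 and 19.2 in IWAT, 25.6, 46.3 and 67.8 in EWAT and 9.41, 30.5 and 20.4 in RWAT. Its EWAT libraries lay above all BAT and IWAT libraries, the opposite of Retnla and Mgl2. The log2 fold change was -2.28 in BAT against EWAT (SE 1.00, edgeR adjusted p = 0.172) and -1.89 in IWAT against EWAT (SE 0.98, adjusted p = 0.358). Without BAT replicate 3, BAT against EWAT gave -4.36 (adjusted p = 0.0486, within a range of 0.0292 to 0.702 over the alternatives). The close relative Chil4, whose coding sequence matched that of Chil3 at 95.4% of 1194 bases, held 24 counts in all 12 libraries together.

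**Figure D2:**
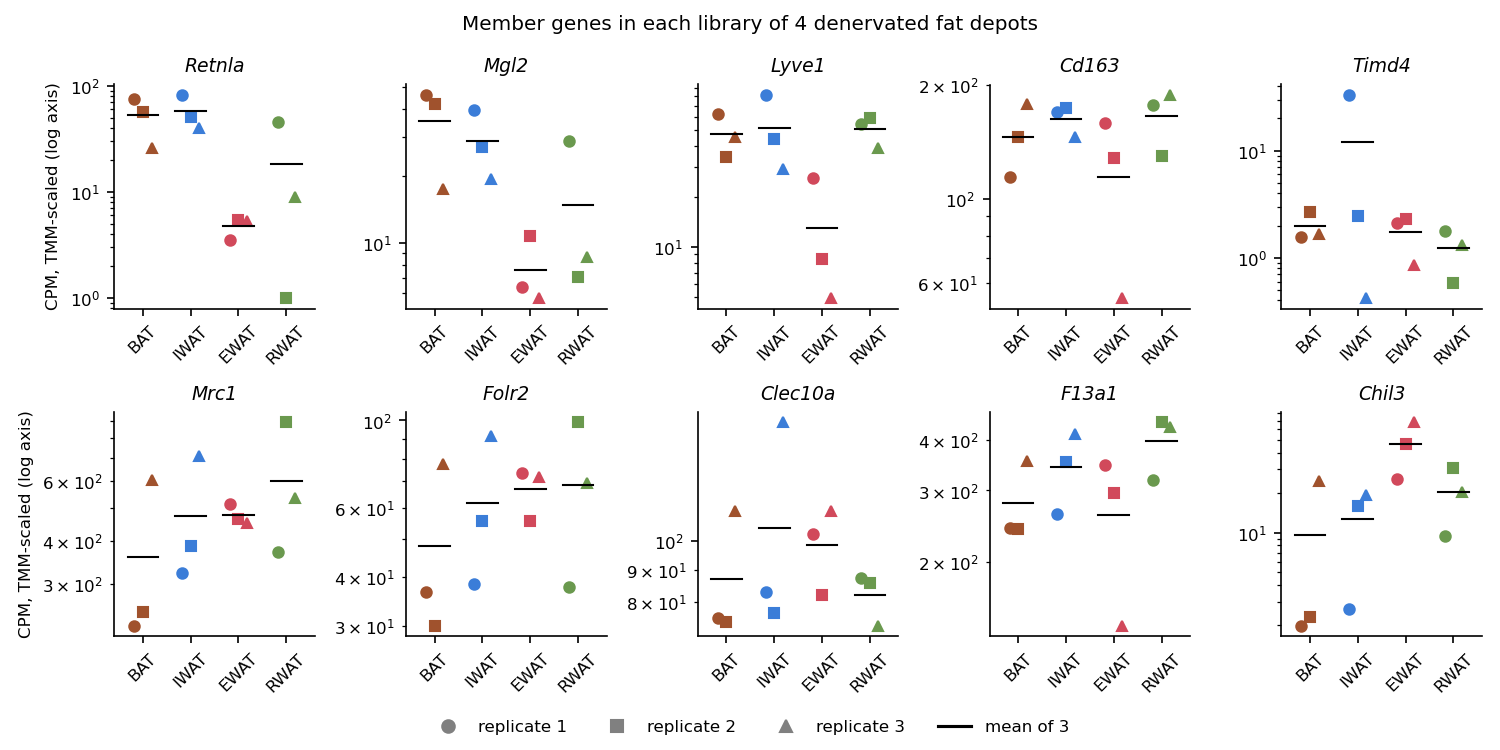
TMM-scaled CPM of the 10 genes (log axes) in each library of BAT, IWAT, EWAT and RWAT. Points are libraries, with their shape for the replicate number, and bars are means of 3. Retnla, Mgl2, Lyve1, Cd163 and F13a1 have their lowest mean in EWAT and Chil3 its highest.

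The groups were then compared over all genes. For BAT set against the average of the 3 white depots, edgeR called 0 of the 10, where 0.0992% of all genes tested were called. Retnla (log2 fold change 1.62, SE 0.69, adjusted p = 0.259) and Mgl2 (1.25, SE 0.43, adjusted p = 0.189) had an unadjusted p under 0.05, which is 2 of 10, against 18.1% of all genes. DESeq2, which called 4.97% of all genes, and limma-voom called 0 of the 10 as well. Chil3 had the lowest fold change, -1.24 (SE 0.84), which was -3.34 without BAT replicate 3, -0.76 without replicate 1 and -0.77 without replicate 2, and the other 7 lay between -0.58 (Timd4) and 0.55 (Lyve1). The median of the 10 was -0.18, against -0.07 for all genes. With the general macrophage level as a covariate Retnla gave 0.74 and Mgl2 0.46.

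For IWAT set against EWAT and RWAT averaged, edgeR called 0 of the 10 and 0.141% of all genes. Timd4, Retnla (2.63, SE 0.76, adjusted p = 0.331) and Mgl2 (1.43, SE 0.47, adjusted p = 0.390) had an unadjusted p under 0.05, against 11.5% of all genes, and DESeq2 called 2 (Timd4 and Retnla), where it called 1.91% of all genes, and limma-voom 0. Lyve1 gave 1.01 (SE 0.47), Chil3 -1.28 (SE 0.88) and the other 5 between -0.18 and 0.25. Without RWAT replicate 1, Retnla reached 3.58 (adjusted p = 0.0454, within a range of 0.0435 to 1 over the alternatives). The median of the 10 was 0.23, against -0.05 for all genes.

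For EWAT against RWAT, edgeR called 0 of the 10 and 0.0418% of all genes. Lyve1 was the only gene of the 10 with an unadjusted p under 0.05, against 9.0% of all genes. DESeq2 called it (-1.96, adjusted p = 0.0361), where it called 2.86% of all genes, and limma-voom called 0. Retnla gave -1.95 (SE 0.96, adjusted p = 0.606), Mgl2 -0.96 (SE 0.56) and Chil3 1.21 (SE 0.96). Without RWAT replicate 1 they were -0.07 for Retnla, -0.05 for Mgl2 and 0.86 for Chil3, so the first 2 rested on that library. With the general macrophage level as a covariate they were -0.55 for Retnla, -0.02 for Mgl2 and -0.13 for Chil3. The median of the 10 was -0.43, against -0.04 for all genes.

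**Figure D3:**
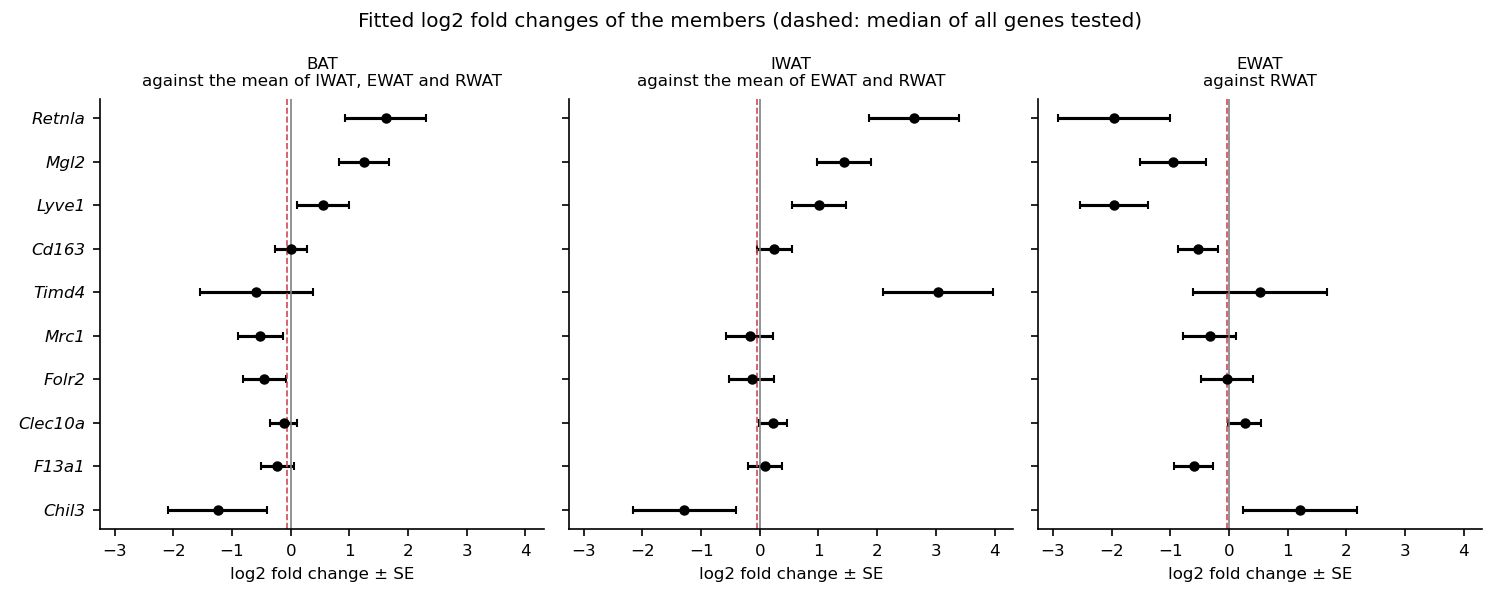
Fitted log2 fold changes (points) with standard errors (bars) of the 10 genes in the 3 main comparisons, from 1 edgeR fit of 12 libraries. Dashed lines mark the median of all genes tested; Retnla, Mgl2 and Lyve1 lie right of 0 in the first 2 panels and left of it in EWAT against RWAT, and no gene passed the adjusted threshold.

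Between single depots, edgeR also called 0 of the 10 in every pair. The share of all genes called was 0.0104% in BAT against IWAT, 0.783% in BAT against EWAT, 0.0574% in BAT against RWAT, 0.345% in IWAT against EWAT and 0% in IWAT against RWAT. At an unadjusted p under 0.05 there were 4 of the 10 both in BAT against EWAT (27.7% of all genes) and in IWAT against EWAT (16.2%), and 1 of the 10 in each of BAT against IWAT (3.8% of all genes), BAT against RWAT (14.8%) and IWAT against RWAT (4.4%), where 1 of 10 is not read as a result about these genes. DESeq2 called Lyve1, Retnla and Mgl2 in both comparisons with EWAT and none of the 10 in the other 3 pairs, and limma-voom called 0 throughout. The share of all genes that DESeq2 called was 16.8% in BAT against EWAT, 5.96% in IWAT against EWAT, 0.89% in BAT against IWAT, 1.81% in BAT against RWAT and 0.937% in IWAT against RWAT. The libraries of BAT and EWAT did not overlap for 3 genes higher in BAT (Lyve1, Retnla and Mgl2; 19.1% of all genes were so) and 1 lower (Chil3; 17.8%). The same 4 genes did not overlap between IWAT and EWAT, where 11.8% of all genes were higher and 13.1% lower without overlap. Lyve1 alone did not overlap between EWAT and RWAT, where 6.66% of all genes were lower in EWAT, while 8.21% were higher. No gene of the 10 was without overlap in the other 3 pairs. The share of all genes higher and lower without overlap there was 3.61% and 3.22% in BAT against IWAT, 7.42% and 9.33% in BAT against RWAT, and 2.71% and 3.97% in IWAT against RWAT. The comparisons share depots, so these counts are not independent.

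The genes were next set against the general macrophage content of each library, the mean log2 CPM of 15 general macrophage genes. Of these, Adgre1, which encodes the surface marker F4/80, ran from 35.4 to 489 CPM, Cd68, a lysosomal glycoprotein gene, from 17.6 to 382 CPM and Csf1r, the receptor of the macrophage growth factor Csf1, from 145 to 733 CPM. None of the 15 was called in the 3 main comparisons. Chil3 followed that level most closely, with Pearson's r = 0.95 and Spearman's rho = 0.90 over the 12 libraries. Folr2 (r = 0.86, rho = 0.74) and Mrc1 (r = 0.81, rho = 0.69) followed it too. Mgl2 (r = -0.86, rho = -0.80), Retnla (r = -0.72, rho = -0.74) and Lyve1 (r = -0.65, rho = -0.72) ran against it. The permutation p of r, adjusted over the 10 genes, was 0.0001 for Chil3, 0.0025 for Folr2 and Mgl2, 0.0028 for Mrc1, 0.0215 for Retnla and 0.0329 for Lyve1 (100000 resamples, two-sided). For rho it was 0.0021 for Chil3, 0.0126 for Mgl2, 0.0206 for Folr2 and Retnla, 0.0221 for Lyve1 and 0.0265 for Mrc1.

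Clec10a (r = 0.57, rho = 0.64, adjusted permutation p = 0.0703 and 0.0433), Timd4 (r = -0.47, rho = -0.45, 0.138 and 0.176), Cd163 (r = -0.26, rho = -0.18, 0.514 and 0.575) and F13a1 (r = 0.16, rho = 0.21, 0.633 and 0.574) were less closely tied to it. Without BAT replicates 1 and 2, the libraries farthest from the median macrophage level, r was 0.91 for Chil3, 0.77 for Folr2, 0.61 for Mrc1, -0.79 for Mgl2, -0.64 for Retnla and -0.73 for Lyve1. Within depots, with depot means subtracted and libraries reordered only inside their depot (1296 orders, exact permutation test), the correlation was 0.94 for Chil3, 0.93 for Mrc1, 0.90 for Folr2, -0.85 for Mgl2 and -0.62 for Retnla. The adjusted exact permutation p was 0.00772 for Chil3, 0.0257 for Mrc1 and Mgl2 and 0.0278 for Folr2 and Retnla. Lyve1 (-0.42, adjusted exact permutation p = 0.112) did not pass within depots. Per unit of log2 macrophage level within depots, the log2 level moved by 1.3 ± 0.18 (SE) for Chil3, 0.54 ± 0.08 for Mrc1 and 0.54 ± 0.10 for Folr2, by 0.01 ± 0.18 for Cd163, and by -0.64 ± 0.15 for Mgl2 and -0.90 ± 0.43 for Retnla. All values of a library share its scaling. The 10 adipocyte markers summed to 14140 to 29390 TPM in BAT, 13120 to 32000 in IWAT, 6418 to 10620 in EWAT and 4966 to 28160 in RWAT, and their part in these relations was not tested. The mitochondrial share of counts was 19.0%, 13.01% and 13.4% in BAT, 12.1%, 10.2% and 4.40% in IWAT, 4.87%, 4.57% and 3.56% in EWAT, and 11.6%, 3.28% and 3.79% in RWAT, and its part was not tested.

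**Figure D4:**
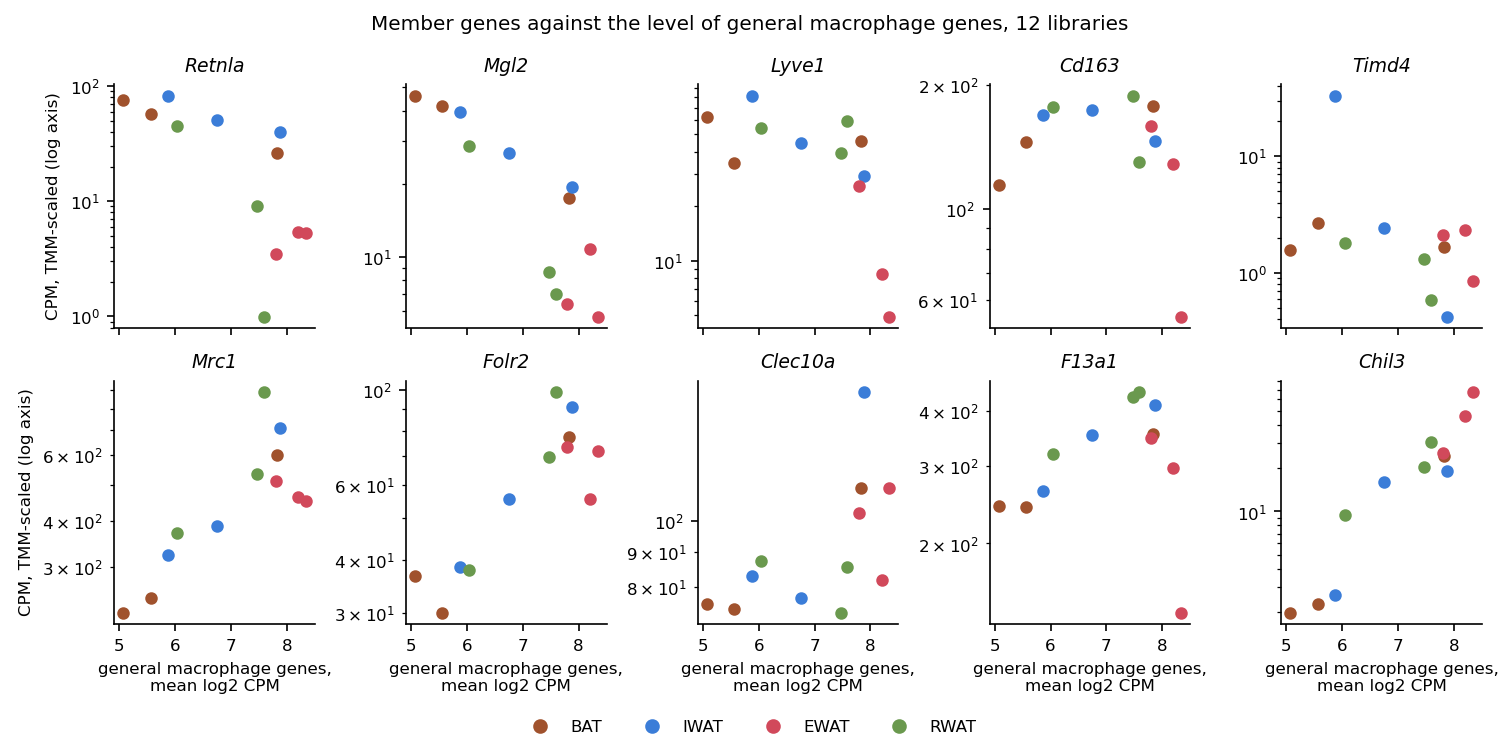
TMM-scaled CPM of each gene (log axes) against the mean log2 CPM of 15 general macrophage genes in the same library; points are the 12 libraries, coloured by depot. Chil3, Folr2 and Mrc1 lie higher, and Mgl2 and Retnla lower, in libraries with a higher macrophage level.

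Set per 100 TPM of the general macrophage genes, Retnla held 20.3, 11.3 and 1.12 TPM in BAT and 13.4, 4.42 and 1.69 in IWAT, against 0.145, 0.162 and 0.167 in EWAT and 6.84, 0.0475 and 0.450 in RWAT. Its 427-fold span was the widest of the 10 genes, and that of Mrc1, 1.39 to 6.17 TPM or 4.44-fold, the narrowest. Every gene of the 10 other than Chil3 had its lowest median per 100 TPM of macrophage genes in EWAT, apart from Timd4, whose lowest was in RWAT (0.0162, against 0.0172 in EWAT). For Cd163 the medians were 3.70 in BAT, 1.95 in IWAT, 0.481 in EWAT and 1.21 in RWAT, and for Mrc1 5.02, 3.49, 1.45 and 4.33. Chil3 had medians of 0.411 in BAT, 0.385 in IWAT, 0.620 in EWAT and 0.644 in RWAT. The divisor itself was 6106 to 10440 TPM in EWAT, against 447 to 5584 in BAT, 1055 to 7614 in IWAT and 1640 to 6511 in RWAT. A gene that does not rise with the divisor is therefore low in EWAT on this scale. Without the division, the mean TPM of Mrc1 (138), Folr2 (100) and Clec10a (164) in EWAT lay above that in BAT and IWAT. In CPM this order did not hold for Clec10a, with a mean of 98.75 in EWAT and 104.9 in IWAT. Mrc1 was nearly level in CPM, at 476.7 in EWAT and 473.3 in IWAT, and Folr2 held 66.87 and 61.71.

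Among the 10 genes themselves, the 45 pairwise correlations of log2 CPM over the 12 libraries ran from -0.88 to 0.94 with a median of 0.04, so they did not move as a single set. Mrc1 and Folr2 had r = 0.94 and rho = 0.95, and Retnla and Mgl2 r = 0.92 and rho = 0.94. Mgl2 and Chil3 had r = -0.88 and rho = -0.94. Permutation p-values of r adjusted over the 45 pairs were 0.00045 for Mrc1 with Folr2 and 0.0012 for both other pairs, and those of rho 0.0009 for all 3. With depot means subtracted r was 0.95 for Mrc1 with Folr2, 0.82 for Retnla with Mgl2 and -0.77 for Mgl2 with Chil3, and the adjusted exact permutation p was 0.0405 for the first pair and 0.0446 for the others. Without the 2 libraries farthest from the median of the first gene, r was 0.95, 0.95 and -0.87. Cd163 with F13a1 had r = 0.78 (adjusted permutation p = 0.063) and rho = 0.54 (0.185), and r = 0.06 without its 2 farthest libraries, so that relation rested on those. Over the 45 pairs, 6 had r over 0.7 and 13 under -0.3. These cut-offs differ in size, so the counts do not say whether positive or negative pairs were more frequent.

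**Figure D5:**
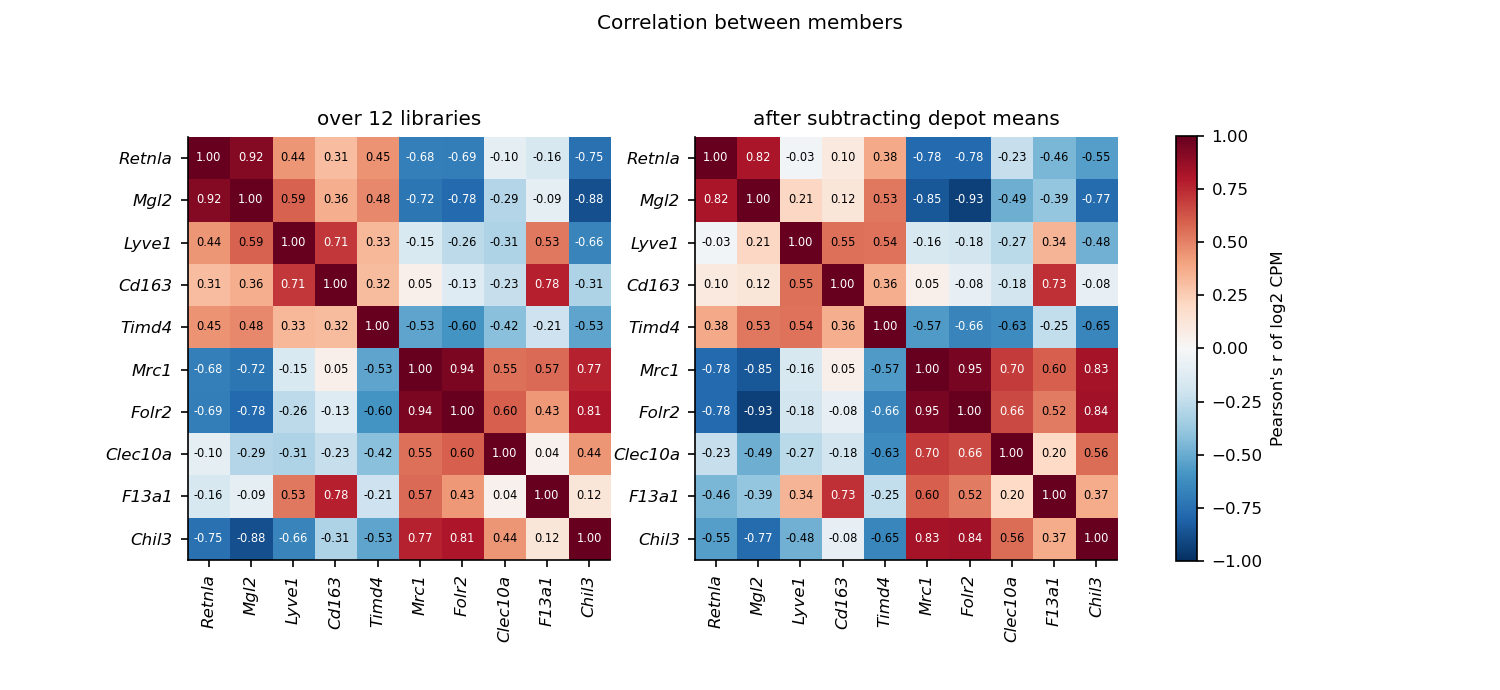
Pearson's r of log2 CPM for every pair of the 10 genes over 12 libraries (left) and after subtracting depot means (right), on a colour scale from -1 to 1. Mrc1, Folr2 and Chil3 form a block of positive values (0.77 to 0.94 on the left) that is negative against Retnla and Mgl2.

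The genes outside the 10 with the profile most like their standardised mean, among 9841 genes with a mean log2 CPM of at least 3, were Ret (r = 0.857), Mon2 (0.854), Cbr2 (0.841), Slc37a3 (0.826) and Lpin3 (0.822) over 12 libraries. With depot means subtracted they were Lpin3 (r = 0.925), Cbr2 (0.894), Ints9 (0.829), Serinc3 (0.829) and Pgap2 (0.825). Cbr2, a carbonyl reductase gene, is the only 1 of these that was also in the list of other resident macrophage genes. For single genes the nearest were Asb13 for Retnla (r = 0.958), Ntrk2 for Mgl2 (0.972), Lgalsl for Lyve1 (0.955), Stxbp6 for Cd163 (0.897), Pros1 for Mrc1 (0.964), Ostc for Folr2 (0.975), D6Wsu163e for Clec10a (0.827), Ppp2r5e for Timd4 (0.876), Lpin3 for F13a1 (0.889) and Fam129b for Chil3 (0.980). These are the highest values among the 9841 genes and carry no test.

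The pathway of alternative activation was read from a list of 22 genes, of which 18 were tested and 0 were called by edgeR in each of the 3 main comparisons. The cytokine genes Il4 and Il13 had 57 and 7 counts in all 12 libraries and were not tested. For BAT against the white mean 6 of 18 had an unadjusted p under 0.05 (18.1% of all genes did), and the list median was -0.18. These were Irf4 (log2 fold change 1.45, SE 0.32), Ppargc1b (1.74, SE 0.45), Cish (1.61, SE 0.44), Pparg (1.10, SE 0.49), Il4ra (-1.16, SE 0.35) and Arg1 (-5.88, SE 1.80), with edgeR adjusted p from 0.0992 to 0.272, named for their p after the values were seen. In the same comparison all 10 adipocyte markers (median 0.94) and all 9 brown adipocyte markers (median 4.92) had positive fold changes. The part of adipocytes in the values of these 6 genes was not tested. Irf4 encodes a transcription factor of alternative activation that adipocytes also use, and in IWAT against EWAT and RWAT it gave 2.18 (SE 0.35, adjusted p = 0.0548). There 4 of 18 had an unadjusted p under 0.05 (11.5% of all genes did), with a list median of -0.09, and in EWAT against RWAT 2 of 18 (9.0% of all genes), with a median of 0.04. In BAT against EWAT edgeR called Irf4 (2.33, SE 0.44, adjusted p = 0.0485), the only call of the list there. Jak1, the kinase gene with the highest mean CPM of the list, ran from 38.8 to 127 TPM. Arg1, the arginase gene, held 0.04, 1.73 and 7.42 TPM in BAT, 0.48, 180 and 28.2 in IWAT, 379, 760 and 966 in EWAT and 20.5, 408 and 190 in RWAT. Its EWAT libraries, like those of Chil3, lay above all BAT and IWAT libraries, while Retnla lay below them there.

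Of 16 other resident macrophage genes, 0 were called in the 3 main comparisons, and the list medians were -0.19 in BAT against white, 0.06 in IWAT against EWAT and RWAT and -0.01 in EWAT against RWAT. Selenop, a selenoprotein gene with the highest mean of the list, ran from 473 to 2415 TPM. Vsig4, a complement receptor gene of resident macrophages, held 0.29, 0.56 and 1.63 TPM in BAT, 1.09, 3.00 and 3.23 in IWAT, 15.99, 15.7 and 11.3 in EWAT and 2.22, 6.54 and 9.41 in RWAT. The lectin gene Cd209f was lowest in EWAT, with 5.84, 3.42 and 1.54 TPM, against 10.4 to 15.5 in BAT, 12.9 to 23.1 in IWAT and 15.3 to 29.3 in RWAT. In EWAT against RWAT 4 of the 16 had an unadjusted p under 0.05, against 9.0% of all genes. Their log2 fold changes were -2.50 for Cd209f (SE 0.60, edgeR adjusted p = 0.195), -2.495 for Cd209g (SE 0.59, 0.191), -3.09 for Cd209d (SE 0.96, 0.321) and 1.3 for Vsig4 (SE 0.50, 0.432). The Cd209 genes thus lay lower in EWAT and Vsig4 higher. EdgeR called Vsig4 across the 4 depots (adjusted p = 0.0455) and as lower in BAT than in EWAT (-3.51, SE 0.55, adjusted p = 0.0330). Vsig4 and the Cd209 genes were singled out after their values were seen.

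The other immune lists held 0 called genes in the 3 main comparisons by edgeR. Unadjusted p under 0.05 was met in BAT against the white mean, IWAT against EWAT and RWAT, and EWAT against RWAT by 2, 0 and 0 of 11 pro-inflammatory genes, by 2, 0 and 3 of 13 lipid-associated macrophage genes, and by 3, 1 and 2 of 10 genes of type 2 innate cells and eosinophils. It was met by 0, 1 and 0 of 8 dendritic cell genes, by 3, 0 and 0 of 6 neutrophil genes, by 4, 0 and 3 of 7 B cell genes and by 0 of 6 macrophage growth factor and receptor genes in each. The share of all genes that met it was 18.1%, 11.5% and 9.0% in these comparisons. The genes with the highest mean CPM of the first 5 lists were Ccr2 at 3.29 to 141 TPM, Ctsb at 284 to 1812 TPM, Il33 at 2.82 to 36.7 TPM, Irf8 at 3.52 to 111 TPM and Csf3r at 0.94 to 27.2 TPM. The 8 neutrophil genes summed to 5.67 to 58.6 TPM in BAT, 23.0 to 138 in IWAT, 49.9 to 137 in EWAT and 50.03 to 228 in RWAT. The 8 dendritic cell genes summed to 13.9 to 70.3 TPM in BAT, 29.3 to 89.6 in IWAT, 69.5 to 134 in EWAT and 37.0 to 67.8 in RWAT. Neither list had a gene at 0 throughout. Their part in the levels of Chil3 and Mgl2 was not tested.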

How the data were processed

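Total RNA of 12 denervated mouse fat depots was depleted of ribosomal RNA and sequenced as single-end reads of 75 bases, per the labels' protocols. Per the submitters' processing notes, Trimmomatic 0.36, RSEM 1.3.0, DESeq2 1.10.1 and the build GRCm38.p4 were used; aligner, annotation and strand setting were not given in the sources used here. Files as deposited hold the authors' RSEM expected counts, which divide reads shared by similar genes, and the authors' TPM, with 2 other deposited columns, the posterior standard deviation of the count and the effective length of each gene. Library totals of 15699912 to 25633413 counts make a floor of 3 counts equal to 0.117 to 0.191 CPM, for counting error only.

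Expected counts were rounded to whole numbers, filtered with filterByExpr to 19154 of 47729 genes, scaled by TMM and tested in 1 fit of all 12 libraries with edgeR 4.0.16 (quasi-likelihood F test, R 4.3.3, Benjamini-Hochberg over all genes tested, threshold 0.05). The standard error is the fold change divided by the square root of F. The procedure was tested on simulated counts. Alternatives were DESeq2 1.42.0, limma-voom (limma 3.58.1), other scalings and filters, the replicate number as a block, the general macrophage level as a covariate, summed paralogs and leaving out each library. The members and lists were chosen with earlier results of these data known. Genes named were all 10 members, Adgre1, Cd68 and Csf1r, the nearest profiles, and from each list the 2 called genes that changed most each way, or the gene with the highest mean CPM where none was called; others are said to be chosen after their values were seen. Two-sided permutation tests of correlations over libraries were added after the data were seen, and the pooled form treats libraries of different depots as exchangeable. Of the listed symbols, 2 had a pair of identifiers each and were not used. Promoter sequences are from RefSeq (GRCm38.p6), and positions and transcripts from GENCODE M21 (GRCm38).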

Additional observations from a re-analysis of the deposited data

How the results depend on the processing

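Of 836 alternative values for the 10 genes across depots and in the 3 main comparisons, 793 kept their direction and side of the threshold, 12 passed it, 0 left it and 31 changed sign, all 31 without a call. In the other 5 pairs of depots, 17 more values passed the threshold, for 29 in all. The number of the 10 genes called was 0 in every comparison with the main edgeR fit. DESeq2 called 4 across depots, 2 in IWAT against EWAT and RWAT, 1 in EWAT against RWAT, and 3 each in BAT against EWAT and IWAT against EWAT. Leaving out each library gave 0 to 2 across depots and in BAT against EWAT, 0 to 1 in IWAT against EWAT and RWAT, in EWAT against RWAT and in IWAT against EWAT, and 0 in the other comparisons. No paired analysis entered the main results, since the labels do not say that a replicate number marks 1 animal. Between libraries with the same number, correlations of deviations ran from 0.024 to 0.629 for replicate 1 and from 0.032 to 0.677 for replicate 3. For replicate 2 they ran from -0.347 to 0.122. With the replicate block, BAT against EWAT had 4 of the 10 called (Lyve1, Retnla, Mgl2 and Chil3), where 3542 of all 19154 genes tested were called. No other call on the 10 changed with the block.

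In BAT against the white mean, signs changed without TMM for Cd163 (-0.34), with limma-voom for Timd4 (0.09), with Clec10a and Mgl2 summed for Clec10a (0.14), and with the macrophage covariate for Mrc1 (0.02), Folr2 (0.13), Clec10a (0.13) and F13a1 (0.01). Leaving out libraries gave -0.10 to 0.16 for Cd163, -0.86 to 0.44 for Timd4 and -0.27 to 0.01 for Clec10a. In IWAT against EWAT and RWAT they changed without TMM for Cd163 (-0.01) and F13a1 (-0.12) and with the covariate for Mrc1 (0.18) and Folr2 (0.21). Leaving out libraries gave -0.59 to 0.04 for Mrc1, -0.03 to 3.61 for Timd4, -0.52 to 0.12 for Folr2, -0.16 to 0.41 for Clec10a and -0.06 to 0.25 for F13a1. In EWAT against RWAT they changed for Folr2 with limma-voom (0.06) and the replicate block (0.02) and for Chil3 with the covariate (-0.13), and leaving out libraries gave -0.59 to 0.07 for Mrc1 and -0.34 to 0.31 for Folr2. The cause was not tested.

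Library totals without TMM gave an all-gene median of -0.46, against -0.07 with TMM, in BAT against white (the 10 genes to -0.57, against -0.18), and to -0.29, against -0.05, in IWAT against EWAT and RWAT (the 10 genes to 0.02, against 0.23). The genes called among all were 98 across depots with edgeR, 2151 with DESeq2, 23 with limma-voom, 436 without a filter, 171 with the block, 50 with the covariate and 11 to 1054 leaving out libraries. In BAT against white 19 became 950 with DESeq2, 3 with limma-voom, 11 without TMM, 47 without a filter, 649 with the block and 1 to 263 leaving out libraries. In IWAT against EWAT and RWAT 27 became 364 with DESeq2, 16 with limma-voom and 6 to 139 leaving out libraries, and in EWAT against RWAT 8 became 546 with DESeq2, 177 with the covariate and 0 to 804. In BAT against EWAT 150 became 3210 with DESeq2, 19 with limma-voom, 233 without TMM, 3542 with the block, 38 with the covariate and 6 to 1996. In IWAT against EWAT 66 became 1138 with DESeq2, 25 with limma-voom, 123 with the block, 109 with the covariate and 7 to 1097. In BAT against IWAT 2 became 170 with DESeq2, 4 without a filter, 0 with the block, 6 with the covariate and 0 to 97, in BAT against RWAT 11 became 333 with DESeq2, 1 with limma-voom, 1 with the block and 0 to 45, and in IWAT against RWAT 0 became 179 with DESeq2 and 0 to 3. Timd4 held 8 to 669 counts in a library, so its values in the low libraries are limited by depth.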

Other observations

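IWAT replicate 1, the library with 33.3 CPM of Timd4 against at most 2.68 in the other 11, also stood apart for other genes, chosen after their values were seen. Cd209b, a C-type lectin gene of macrophages in spleen and lymph node, held 98.2 CPM there and at most 10.2 in the other 11. Stab2, a hyaluronan scavenger receptor gene, held 21.9 CPM and at most 4.55 elsewhere. Mmrn1, a gene of lymphatic endothelium and platelets, held 23.4 CPM and at most 8.04 elsewhere, and F8, the coagulation factor VIII gene, 31.3 CPM and at most 10.8 elsewhere. Ms4a1, the B cell surface gene for CD20, held 11.2 CPM and at most 5.95 elsewhere. Coch (4.43 CPM, at most 1.11 elsewhere), Nrn1 (12.1, at most 4.375) and Mup18 (162, at most 67.2) stood apart there as well. So did Ighd (5.28 CPM, at most 2.04 elsewhere), Bank1 (11.5, at most 4.90) and Dnase1l3 (4.04, at most 1.81), which are not in the lists used here. The 8 B cell genes summed to 11.3 TPM in that library, against 5.70 and 11.3 in IWAT replicates 2 and 3 and 11.2 to 19.7 in EWAT. The 5 lymphatic endothelial markers summed to 21.1 TPM there, the lowest in IWAT. Pdpn was the highest gene of that list, and Mmrn1, which stood apart upward in this library, is also 1 of the 5. The part of other tissue in that library was not tested.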
